A study of Mus musculus with 6 samples.

Results

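The prostaglandin and leukotriene synthesis genes are the 10 genes Pla2g4a, Ptgs1, Ptgs2, Ptges, Ptges3, Tbxas1, Alox5, Alox5ap, Lta4h and Ltc4s, chosen by their symbols out of 55254 genes in the count table, and each is described by the transcript to which most reads were counted. They were measured in bone marrow-derived macrophages (BMDMs) of C57BL/6J mice in 2 groups of 3 libraries. The control BMDMs carried the floxed allele hnRNPDfl/fl alone. The M-Δx3,4 BMDMs were LysCre+hnRNPDfl/fl, in which a Cre recombinase driven by the myeloid LysM locus removes exons 3 and 4 of hnRNPD, the gene of the RNA-binding protein AUF1. All cultures were differentiated for 10 days in RPMI medium with 5% FBS and 10% L-medium and were treated with 100 ng/ml LPS for 4 h, so both groups share the LPS treatment and the floxed allele. The labels do not say whether the libraries of a group came from separate mice, and p-values therefore measure the spread between these libraries, which may be technical.

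Eicosanoids are lipid mediators made from arachidonic acid, which cytosolic phospholipase A2 releases from membranes. Cyclooxygenases turn it into prostaglandin H2, from which terminal synthases make prostaglandin E2 or thromboxane A2, whereas 5-lipoxygenase with its activating protein makes leukotriene A4, the precursor of leukotriene B4 and of the cysteinyl leukotrienes. Macrophages carry both branches, and Ptgs2 is a classical LPS-induced gene whose 3′ UTR contains AU-rich elements, the kind of sequence after which AUF1 (AU-rich element-binding factor 1) is named.

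The 3′ UTRs of the genes differ widely in such sequences, and the windows printed here are those of Ptgs2 and Ptges3, at which a reader would look first, and of Pla2g4a, whose pentamers were the densest. The pentamer searched was ATTTA on the transcript strand, with overlapping matches counted, in the 3′ UTR annotated by GENCODE vM21 (GRCm38, the assembly of mm10). Each line gives the 30 bases with the most pentamers, 5′ to 3′, with the pentamers in capitals.
Ptgs2: atATTTATTTATTTAtgtgaagaATTTAat
Pla2g4a: atttttATTTAaatgtttatATTTAcacat
Ptges3: attgtgtggggcgATTTAagtcagctaagg
The Ptgs2 window lies at chr1:150105796-150105825 on the plus strand, the Pla2g4a window at chr1:149829657-149829686 on the minus strand and the Ptges3 window at chr10:128076291-128076320 on the plus strand.

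The Ptgs2 3′ UTR (2445 bases) held 14 pentamers, 7 of which began within the first 57 bases after the stop codon. Only 0.423% of the 710 tested genes with a 3′ UTR within 10% of that length held as many or more. It also had 6 matches to TATTTAT and 1 to the nonamer TTATTTATT, which contains both shorter motifs and was present in 10.1% of those genes. In the 443 bases of the Pla2g4a 3′ UTR there were 4 pentamers, a number reached by 1.56% of 449 genes of like length. Ptges3 had 4 pentamers in 1186 bases, and 19.1% of 721 genes of like length had as many or more, so its number was not unusual. Ptges had no pentamer in 3106 bases, although 96.3% of 600 genes of like length had at least 1. Alox5 and Alox5ap had 2 each, and Ptgs1, Tbxas1, Lta4h and Ltc4s had none. For Lta4h the 3′ UTR scanned was that of the coding transcript ENSMUST00000016033, not of its transcript with the most reads. Among all 9902 genes scanned, 68.9% held the pentamer, with a median of 1.21 per kb. A match is a match of letters and does not show binding.

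**Figure D1:**
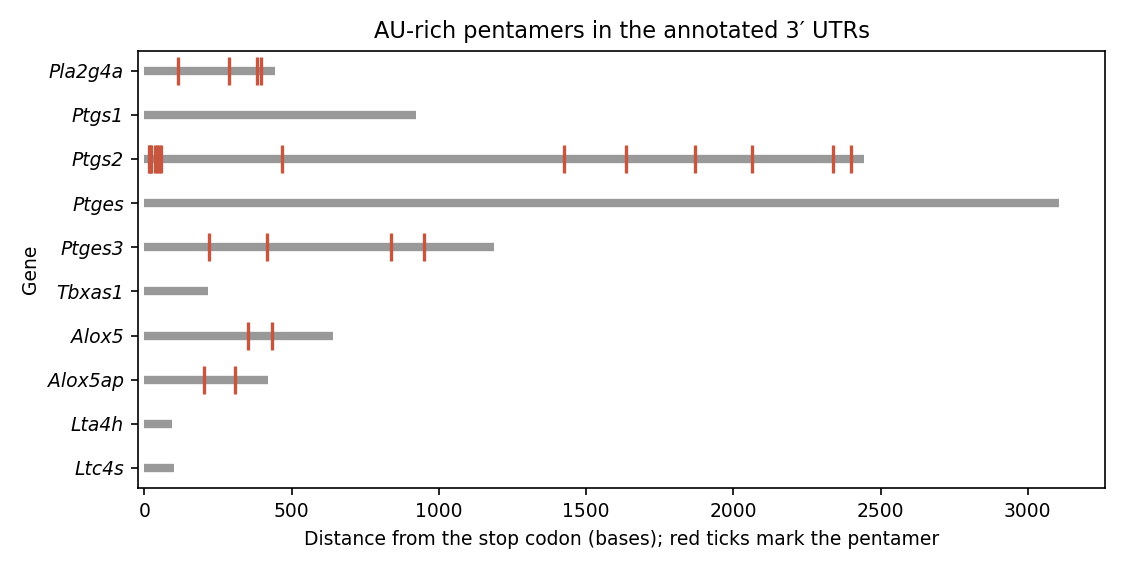
Annotated 3′ UTRs of the 10 genes drawn to scale from the stop codon in bases (grey bars), with red ticks at the start of each AU-rich pentamer. The 14 ticks of Ptgs2 include 7 close to the stop codon, and the longest bar, that of Ptges, has none. The bar of Lta4h is that of its coding transcript.

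Summed over transcripts, the libraries held 5852374 to 9008878 counts, and with 1 transcript per gene 2503125 to 3846215. The Pearson correlation between libraries, across genes with a mean above 50 normalized counts, ran from 0.764 between control replicates 1 and 3 to 0.971 between control replicate 1 and M-Δx3,4 replicate 3, so the libraries did not sort by group. Control replicate 3 had the lowest correlations, at 0.764 to 0.895 with the other libraries. The M-Δx3,4 libraries correlated with each other at 0.950 to 0.952. The targeted gene, by the Hnrnpd transcript of the p37 isoform, had 177.8, 104.2 and 69.6 normalized counts in the control and 52.8, 12.6 and 16.0 in the M-Δx3,4 libraries. All 10 macrophage markers were detected, at 5815 to 7477 normalized counts in sum, as were 13 LPS response genes, at 21900 to 27772. Among the 10, only Lyz2, singled out after its values were seen, was separated by group. It had 1992, 1788 and 2201 normalized counts in the control and 1342, 882 and 968 in the M-Δx3,4 libraries. Such a separation was found in 8.44% of all genes tested. Of the mast cell and basophil markers 8 of 10 were at 0 in every library (Cpa3, Mcpt4, Tpsb2, Cma1, Fcer1a, Ms4a2, Mcpt8 and Gata2). Neutrophil markers summed to 418 to 751 with Elane at 0, eosinophil markers to 8.41 to 52.3 with Prg3, Epx and Ear1 at 0, dendritic cell markers to 8.14 to 20.9 with Cd209a and Clec9a at 0, and stromal markers to 6.80 to 53.5 with none at 0. The 7 B cell markers, none of them at 0 throughout, summed to 301.0, 321.8 and 358.5 in the control libraries and were lower in M-Δx3,4, at 165.3, 142.7 and 146.7, without overlap.

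Of the 10 synthesis genes, 8 passed the filter on low counts and were tested, and the largest fold changes were those of Ptges3 and Ptges, terminal synthases of prostaglandin E2. In M-Δx3,4 BMDMs Ptges3 was higher and Ptges lower, each by about 1 on the log2 scale, and only the libraries of Ptges3 did not overlap between the groups. In bulk RNA, fewer cells of a type and less RNA per cell cannot be told apart. Both genes passed the limits used here, namely a log2 fold change of 1 or more in either direction with an unadjusted p under 0.05, and neither had an adjusted p under 0.05 (edgeR's quasi-likelihood test, Benjamini-Hochberg adjustment over 32475 transcripts, of which 1071, or 3.3%, passed). Over all 11873 genes tested, represented in the same way, 364 (3.07%) passed those limits, 131 (1.1%) higher and 233 (1.96%) lower, and none had an adjusted p under 0.05, whereas 472 (3.98%) had an unadjusted p under 0.05. DESeq2 and the other fits run also gave an adjusted p of at least 0.182 for every one of the 8 genes. The median log2 fold change of the 8 was -0.09, beside -0.01 over all genes tested.

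**Figure D2:**
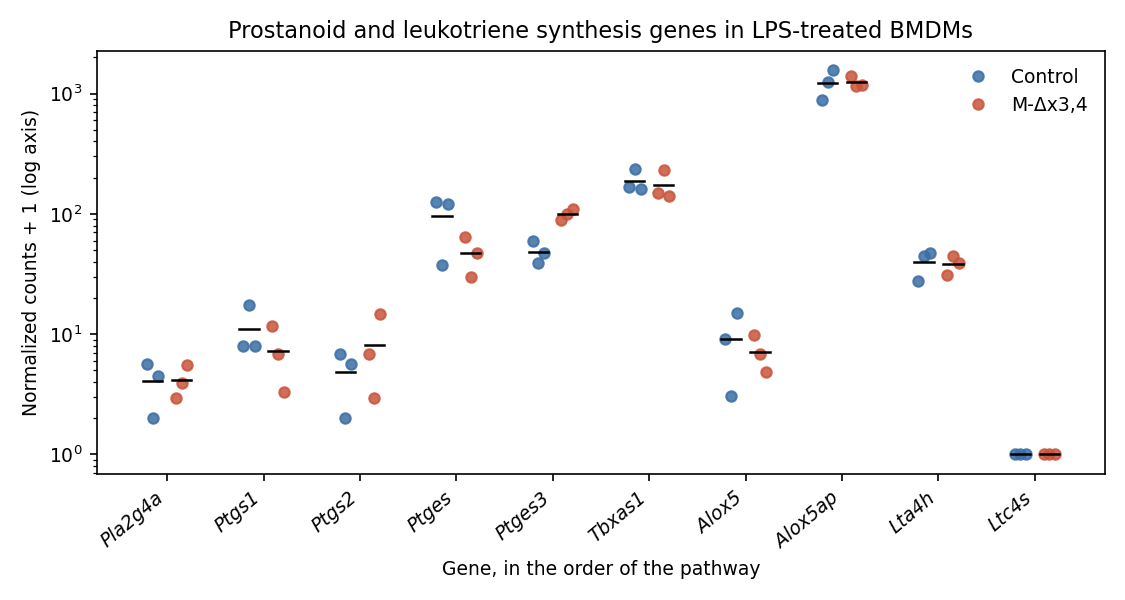
Normalized counts plus 1 (log axis) of the 10 genes in the order of the pathway, with 1 point per library (blue control, red M-Δx3,4, 3 each) and black lines at the group means. The groups are separated only at Ptges3, with 88.0 to 108.5 against 37.8 to 58.1 normalized counts, and Ltc4s sits at 0 counts in all 6 libraries.

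Levels between genes are set side by side here in the TPM values of the authors, in which a count is divided by the length of its region. A 3′ library gives about 1 tag per RNA whatever its length, so this order can differ from that of undivided counts. On that scale Alox5ap stood far above the others, with 131.1 ± 30.3 TPM in control BMDMs (SD, n = 3). Tbxas1 followed with 29.1 ± 5.90 and Lta4h with 11.2 ± 2.45, and the libraries of these 3 genes did not overlap with each other. The place of Lta4h rests on its short region of 249 bases, since before division by length its 39.0 normalized counts in control BMDMs were under the 47.4 of Ptges3 and the 94.3 of Ptges. Ptges3 (2.41 ± 0.652) and Ptges (2.06 ± 1.13) were not separated beyond their spread in the control group, whereas in the M-Δx3,4 group Ptges3 had 5.08 ± 0.575 and Ptges 1.03 ± 0.402 TPM. Alox5 (0.626 ± 0.450), Ptgs1 (0.615 ± 0.331), Pla2g4a (0.342 ± 0.224) and Ptgs2 (0.105 ± 0.0725) lay under 1.1 TPM in every control library, and adjacent genes in this order overlapped. Before division by length the order of their control means was Ptgs1 (10.1), Alox5 (8.03), Ptgs2 (3.82) and Pla2g4a (3.05 normalized counts).

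Pla2g4a, the cytosolic phospholipase A2 that frees arachidonic acid, was close to the limit of detection. Its transcript ENSMUST00000070200 had 4, 1 and 3 counts in the control and 2, 3 and 6 counts in the M-Δx3,4 libraries. It did not pass the filter, which asked for more than 4.89 normalized counts in at least 1 library, and was not tested. The group means were 3.05 ± 1.85 and 3.15 ± 1.33 normalized counts (SD, n = 3), and the libraries overlapped.

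Both cyclooxygenases were also counted at a few reads per library. Ptgs1, the constitutive enzyme (ENSMUST00000062069, chr2:36251352-36252521, plus strand), had 6, 16 and 6 counts in the control and 11, 6 and 3 in the M-Δx3,4 libraries. Its normalized counts were 10.1 ± 5.42 and 6.29 ± 4.25, a log2 fold change of -0.71 with a 95% interval from -2.27 to 0.86. Ptgs2, the inducible enzyme (ENSMUST00000035065, chr1:150105783-150108476, plus strand), had 5, 1 and 4 counts in the control and 6, 2 and 18 in the M-Δx3,4 libraries. M-Δx3,4 replicate 3 stood above the other 5 libraries, which overlapped. The normalized counts of Ptgs2 were 3.82 ± 2.50 and 7.19 ± 6.02, and its log2 fold change was 0.93 with an interval from -1.03 to 2.90. The interval of Ptgs2 includes a log2 fold change of -1 as well as of 1, so neither was excluded at these counts.

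The share of Ptgs2 among the counts of both cyclooxygenases, which needs no normalization, was 45.5%, 5.88% and 40% in the control and 35.3%, 25.0% and 85.7% in the M-Δx3,4 libraries. The exact (Clopper-Pearson) 95% interval of a single library was wide, from 0.149% to 28.7% for the 1 of 17 counts in control replicate 2 and from 63.7% to 96.95% for the 18 of 21 counts in M-Δx3,4 replicate 3. Such intervals cover counting error only. The group means were 30.4% ± 21.4 and 48.7% ± 32.5 (SD, n = 3), a difference of 18.2 percentage points that was within the spread (exact permutation test, two-sided, p = 0.6, where 0.1 is the smallest that 3 against 3 allow). Without M-Δx3,4 replicate 3 the difference was -0.30 percentage points.

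Over the 6 libraries, the genes whose log2 normalized counts ran most like those of Ptgs2 were Zcchc8 (Pearson's r = 0.987), Bmi1 (r = 0.979) and Hmgn3 (r = 0.978), the 3 highest of 4723 genes with a mean above 50 normalized counts. All points share the depth of their library, and the low counts of Ptgs2 set this order, which is given as a description.

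Ptges encodes the inducible microsomal prostaglandin E synthase 1, and its transcript ENSMUST00000102852 was counted over chr2:30889222-30892576 on the minus strand. The control libraries had 125.5, 36.8 and 120.7 normalized counts and the M-Δx3,4 libraries 62.6, 29.1 and 46.6. Control replicates 1 and 3 were above every M-Δx3,4 library, but control replicate 2 lay within their range. The means were 94.3 ± 49.9 and 46.1 ± 16.7 (SD, n = 3), a ratio of 0.489, and the log2 fold change was -1.03 (standard error 0.48, 95% interval from -2.05 to -0.004, unadjusted p = 0.0492 and adjusted p = 0.984 in edgeR's quasi-likelihood test). The exact permutation test, two-sided, gave p = 0.3. Ptges no longer passed the limits in 8 of the other fits, among them those with TMM factors, with library totals alone, with a minimum of 10 counts in every library, or without control replicate 1 (log2 fold change -0.76), control replicate 3 (-0.80), M-Δx3,4 replicate 2 (-0.79) or M-Δx3,4 replicate 3 (-1.04).

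Within the Ptges region, 3 further transcripts were counted over overlapping windows of 249 bases near its stop codon, and their reads are a part of the same reads. The window of ENSMUST00000126588 had 11, 7 and 11 counts in the control and 6, 0 and 2 in the M-Δx3,4 libraries, without overlap. Its log2 fold change was -2.11 (standard error 0.93, unadjusted p = 0.0379 and adjusted p = 0.984 in edgeR's quasi-likelihood test). It took 10.2%, 19.4% and 10.6% of the counts of the whole region in the control and 9.38%, 0% and 3.28% in the M-Δx3,4 libraries, and a count of 0 in M-Δx3,4 replicate 2 allows up to 3 counts. The windows of the other 2, ENSMUST00000056046 and ENSMUST00000132244, had log2 fold changes of -1.13 and -1.24 with overlapping libraries. The window without overlap was the most extreme of these 3, which share reads, so it adds no separate evidence on Ptges. A separation of the groups was found in 8.44% of all genes tested, and 3.3% of all transcripts passed the limits.

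Ptges3, the cytosolic prostaglandin E synthase that is also the Hsp90 co-chaperone p23, had 58.1, 37.8 and 46.4 normalized counts in the control and 88.0, 99.04 and 108.5 in the M-Δx3,4 libraries. Every M-Δx3,4 library was above every control library. Such a separation was found in 8.44% of all genes tested, in 4.19% with M-Δx3,4 the higher and in 4.25% with it the lower group. The means were 47.4 ± 10.2 and 98.5 ± 10.3 (SD, n = 3), 2.08-fold higher in M-Δx3,4 BMDMs. The log2 fold change was 1.05 (standard error 0.37, 95% interval from 0.26 to 1.85, unadjusted p = 0.0124 and adjusted p = 0.984 in edgeR's quasi-likelihood test), and the exact permutation test, two-sided, gave its smallest possible p of 0.1. With each library left out it stayed between 0.91 and 1.23, and it missed the limits without control replicate 2 (0.91, unadjusted p = 0.0632) and without M-Δx3,4 replicate 3 (0.98).

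The Ptges3 transcripts ENSMUST00000052798 (chr10:128076087-128077521, plus strand) and ENSMUST00000084771 held identical counts, so they are 1 measurement. A processed pseudogene, Ptges3-ps, had 0, 3 and 0 counts in the control and 0, 1 and 4 in the M-Δx3,4 libraries, where Ptges3 itself had 37 to 142 over both groups. Reads of such a copy can be split or moved by the mapping, so the level of Ptges3 is uncertain by that amount at least. The B cell markers were also separated by group, in the opposite direction to Ptges3, and their part in the result was not tested.

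**Figure D3:**
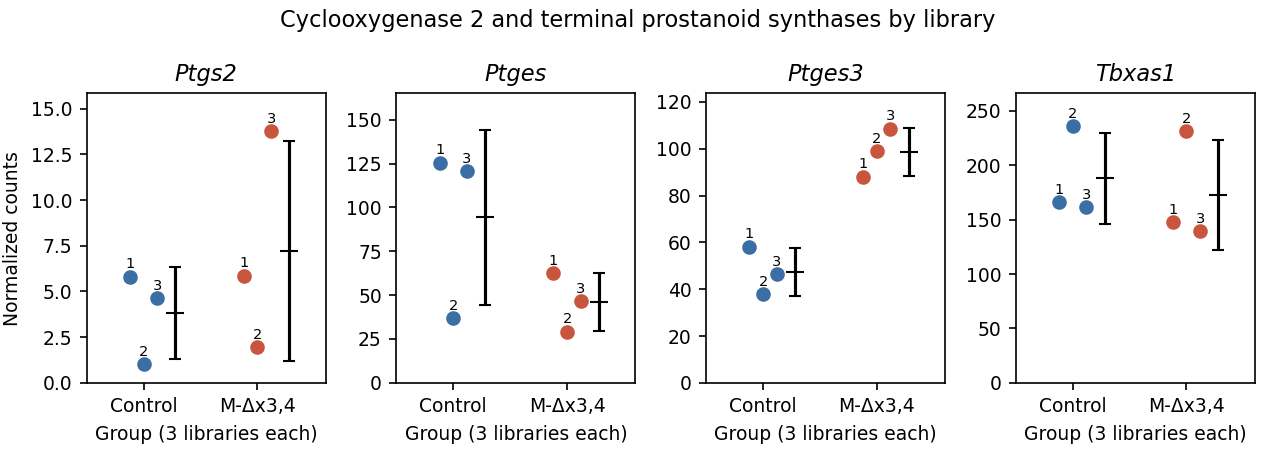
Normalized counts of Ptgs2, Ptges, Ptges3 and Tbxas1 on linear axes from 0, with 1 numbered point per library and the group mean ± SD (n = 3) in black beside it. Ptges3 is higher in all 3 M-Δx3,4 libraries, control replicate 2 of Ptges lies among the M-Δx3,4 libraries at 36.8, and a single library of Ptgs2 reaches 13.8.

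Tbxas1, thromboxane A synthase, had the highest TPM of the 7 tested prostanoid synthases, and its groups lay close together. Its transcript (ENSMUST00000003017, chr6:39084371-39084834, plus strand) had 166.2, 236.0 and 161.3 normalized counts in the control and 147.7, 231.1 and 139.1 in the M-Δx3,4 libraries. Replicate 2 was the highest in each group, and the groups overlapped. The log2 fold change was -0.12 with a 95% interval from -0.87 to 0.62, so a difference of up to 0.87 downward or 0.62 upward on the log2 scale was not excluded.

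In the leukotriene branch the means of the 2 groups lay close together for Alox5ap and Lta4h, whereas Alox5 had too few counts to judge. Alox5, the 5-lipoxygenase itself (ENSMUST00000026795, chr6:116409828-116410718, minus strand), had 7, 2 and 12 counts in the control and 9, 6 and 5 in the M-Δx3,4 libraries. Its log2 fold change of -0.38 had an interval from -2.06 to 1.302, and without control replicate 3 its sign turned (0.29). Alox5ap, the 5-lipoxygenase-activating protein (FLAP), was read far more deeply. Its transcript (ENSMUST00000071130, chr5:149287735-149288402, plus strand) had 875.2, 1240.3 and 1568.5 normalized counts in the control and 1391.9, 1155.5 and 1178.4 in the M-Δx3,4 libraries. Control replicates 1 and 3 were the lowest and the highest of all 6. The means were 1228 ± 347 and 1242 ± 130 (SD, n = 3), and the log2 fold change of 0.02 had an interval from -0.65 to 0.68. An annotated gene on the opposite strand, Gm19719, overlaps this region, and the sources used here do not state whether counting used the strand.

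Lta4h, the leukotriene A4 hydrolase that makes leukotriene B4, had 26.7, 43.9 and 46.4 normalized counts in the control and 30.3, 43.7 and 38.2 in the M-Δx3,4 libraries. The groups overlapped, with means of 39.0 ± 10.7 and 37.4 ± 6.72 (SD, n = 3) and a log2 fold change of -0.06 (95% interval from -0.93 to 0.81). These are values of ENSMUST00000217556 (chr10:93484819-93485067, plus strand), which GENCODE annotates as a retained intron. The coding transcript ENSMUST00000016033, counted over an overlapping region of 343 bases, gave a log2 fold change of -0.03.

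Ltc4s, the leukotriene C4 synthase that commits the pathway to cysteinyl leukotrienes, had 0 counts in all 6 libraries for each of its 7 listed transcripts. A count of 0 allows up to 3 counts, or 2.29 to 3.49 normalized counts. The mast cell and basophil markers, of cell types known for Ltc4s, were likewise at 0 for 8 of 10, but Hdc, histidine decarboxylase, had 151.1 to 211.7 normalized counts in every library and Kit had 0 to 3 counts. Mgst2, a microsomal glutathione transferase that can also make leukotriene C4 and was singled out after its values were seen, had 0, 3 and 5 counts in the control and 9, 1 and 10 in the M-Δx3,4 libraries.

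**Figure D4:**
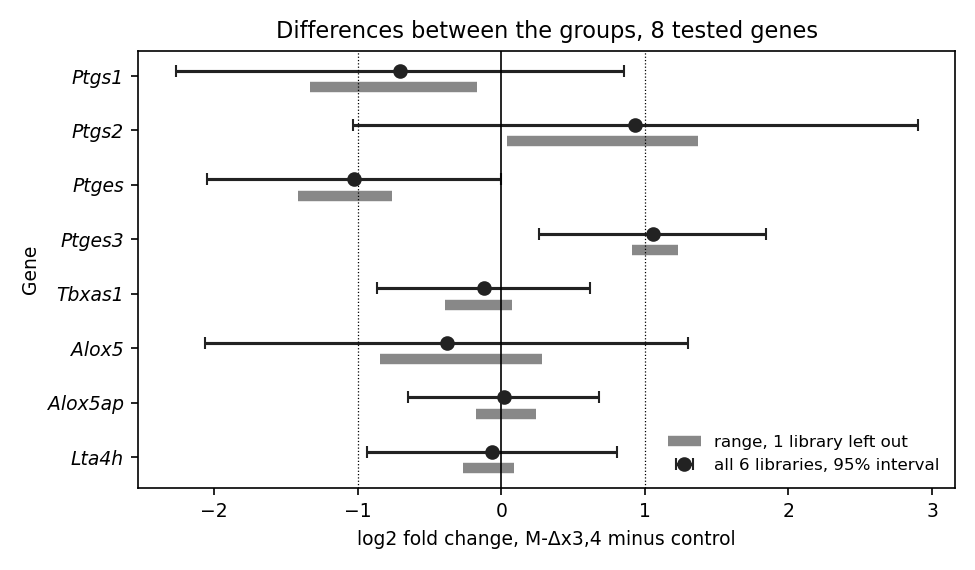
Log2 fold changes of the 8 tested genes, M-Δx3,4 minus control, with 95% intervals from edgeR (points and lines) and the range with 1 library left out in turn (grey bars). Dotted lines mark -1 and 1, and only the intervals of Ptges3 (0.26 to 1.85) and Ptges (-2.05 to -0.004) do not include 0.

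The wider eicosanoid pathway was read from 7 lists of 68 genes, including the 10. Of these, 66 were in the table, 14 were at 0 in every library and 38 were tested. A total of 7 passed the limits, 3 higher (Ptges3, Hpgd and Cysltr1) and 4 lower in M-Δx3,4 BMDMs (Ptges, Dpep1, Ephx2 and Cyp4f18), beside the 3.07% of all genes tested, and 8 had an unadjusted p under 0.05. Of the 7, Cysltr1, Cyp4f18, Dpep1 and Ephx2 were above the filter of 4.89 normalized counts in libraries of 1 group only, so they were tested because that group was high and had to differ, and the count of 7 supports nothing about the pathway. The median log2 fold change of the 38 was -0.02, and 19 were higher and 19 lower.

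Among the 10 tested genes of phospholipases and lipid remodelling, none passed the limits. Mboat7, which returns arachidonic acid to phosphatidylinositol, had 93.0, 105.2 and 155.5 normalized counts in the control and 65.5, 50.5 and 64.2 in the M-Δx3,4 libraries, without overlap. Its log2 fold change of -0.97 (standard error 0.37, unadjusted p = 0.0194) fell just short of the limit of 1. It passed both limits in 5 of the other fits, while without control replicate 3 (-0.71, unadjusted p = 0.0689) and without M-Δx3,4 replicate 2 (-0.86, unadjusted p = 0.0770) its p missed 0.05. Acsl4, which activates arachidonic acid, and the lysosomal phospholipase Pla2g15 were named for their counts, a rank that is not per length. Their log2 fold changes were 0.30 and -0.28, with overlapping libraries. Hpgds, the hematopoietic prostaglandin D synthase, was named for the same reason, with 92.5 ± 74.8 and 103.2 ± 32.2 normalized counts (SD, n = 3) and a log2 fold change of 0.16.

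Of the 7 tested genes of transport and breakdown, Hpgd and Cyp4f18 passed the limits in opposite directions. Cyp4f18 was above the filter in control libraries only, so its passing of the limits supports nothing. Hpgd, the enzyme that starts the inactivation of prostaglandins by oxidation, had 16, 5 and 5 counts in the control and 32, 19 and 42 in the M-Δx3,4 libraries. Its normalized libraries overlapped, at 9.84 ± 7.60 and 27.3 ± 7.66 (SD, n = 3), and its log2 fold change was 1.47 (standard error 0.57, unadjusted p = 0.0201 and adjusted p = 0.984 in edgeR's quasi-likelihood test). Cyp4f18, a cytochrome P450 that oxidizes leukotriene B4, had 5, 5 and 17 counts in the control and 1, 1 and 5 in the M-Δx3,4 libraries. Its log2 fold change was -2.27, and no test is given because only control libraries were above the filter. Ptgr1, a reductase that inactivates prostaglandins and leukotriene B4, and Abcc1, an exporter of leukotriene C4, were also named for their counts and had log2 fold changes of -0.25 and 0.37. Hpgd missed the limits without control replicate 2 and without M-Δx3,4 replicate 1 or 3, and its log2 fold change was 2.31 without control replicate 1. The value of Cyp4f18 was -3.22 without M-Δx3,4 replicate 3, and without control replicate 3 it did not pass the filter.

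Cysltr1, the high-affinity receptor of leukotriene D4, was counted at a few reads per library. It had 3, 1 and 1 counts in the control and 11, 7 and 16 in the M-Δx3,4 libraries, and 1.89 ± 1.39 and 9.93 ± 2.81 normalized counts (SD, n = 3). Its log2 fold change was 2.34, or 3.06 without control replicate 1, and no test is given because only M-Δx3,4 libraries were above the filter. Fpr2, the lipoxin A4 receptor, was named for its counts, at 184.6 ± 43.7 and 201.0 ± 12.2 normalized counts (log2 fold change 0.12). None of the 3 tested prostanoid receptors passed the limits, and the prostaglandin E2 receptors Ptger4 and Ptger3, named for their counts, had log2 fold changes of -1.16 and -0.17 from 1 to 13 and 0 to 10 counts per library.

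The other pathway genes past the limits rested on 1 or 2 control libraries. Dpep1, a dipeptidase that converts leukotriene D4 to E4, had 13, 2 and 0 counts in the control and 0 in every M-Δx3,4 library. Ephx2, soluble epoxide hydrolase, had 13 counts in control replicate 3 and 0 in the other 5 libraries. Since control libraries were also at 0, no fold change is given for either gene. Alox8, an arachidonate lipoxygenase named for its counts, had 1 to 11 counts per library and a log2 fold change of -0.42.

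**Figure D5:**
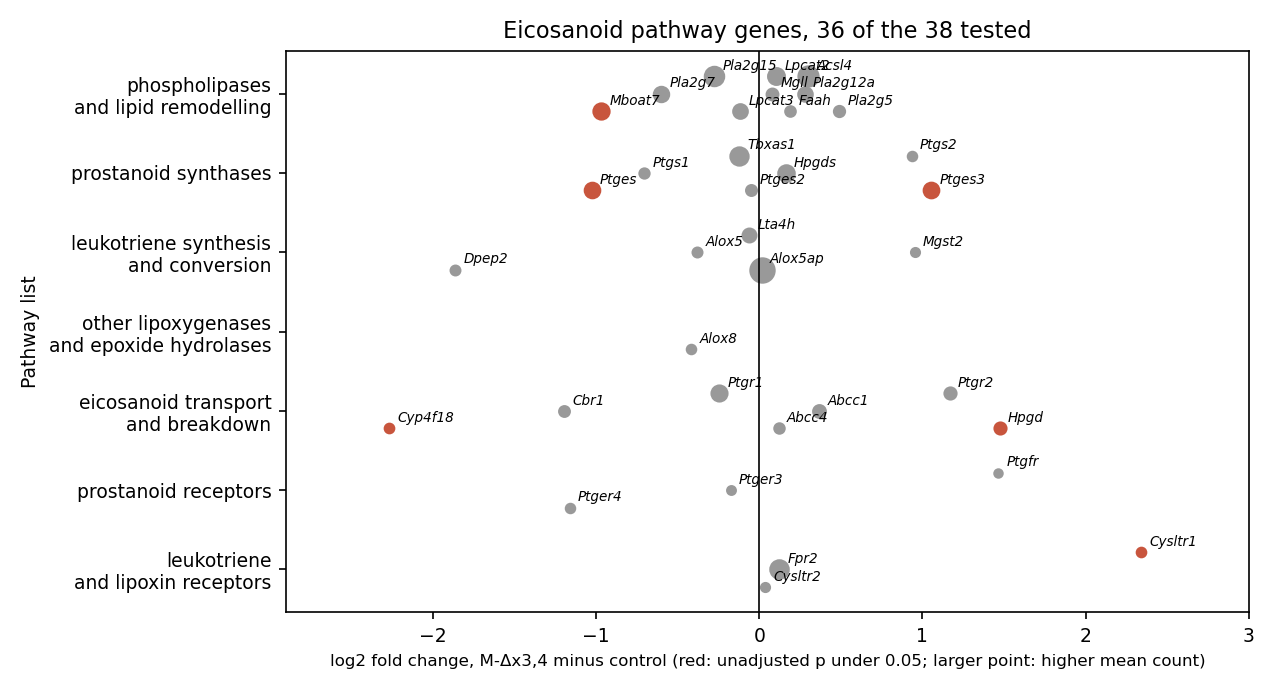
Log2 fold changes (M-Δx3,4 minus control) of 36 of the 38 tested eicosanoid pathway genes, grouped by list, with larger points for higher mean counts and red points for an unadjusted p under 0.05. Dpep1 and Ephx2, at 0 in the M-Δx3,4 group, are left out, and the red points run from Cyp4f18 at -2.27 to Cysltr1 at 2.34. Cyp4f18 and Cysltr1 were above the filter in the libraries of a single group, so their color supports nothing.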

How the data were processed

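RNA of 3 control and 3 M-Δx3,4 BMDM cultures was sequenced from the 3′ ends (QuantSeq FWD, Ion Proton). The authors mapped reads to mm10 with TopHat2 (2.1.1 in the submitters' processing notes) and then Bowtie2, counted them with metaseqR2 on Ensembl 3′ UTR regions, and deposited raw counts per region. For the synthesis genes these regions ran 249 bases past the annotated 3′ UTR end, which for Lta4h was read from its coding transcript. The deposited TPM values were made by the authors per region length. Their fold changes, p-values and 18 other per-sample columns were not used.

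Counts were summed per transcript, normalized with median-of-ratios (RLE) factors, kept above 4.89 normalized counts (the median) in at least 1 library, and tested with edgeR's quasi-likelihood test (edgeR 4.0.16, R 4.3.3) over all 6 libraries, with Benjamini-Hochberg adjustment over all transcripts. The limits were a log2 fold change of 1 or more in either direction and an unadjusted p under 0.05. The fit was tested on simulated data, in which the planted changes were larger than those of Ptges and Ptges3. No change was planted in transcripts of low count, so the simulation does not bear on calls near the limits or at few counts. Exact permutation tests were two-sided on log2(normalized count + 1), or on the percentages for the share of Ptgs2. Depth ran from 5852374 to 9008878 summed counts, and intervals of shares and floors of 3 counts cover counting error only. Alternatives were TMM factors, library totals (added after the data were seen), DESeq2 1.42.0, other filters, 1 transcript per gene, single segments, a replicate block and each library left out.

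The genes and lists were chosen with earlier results of these data known. Named are all 10 genes, the pathway genes with an unadjusted p under 0.05, the 2 genes of each list with the highest mean normalized count, the 3 genes most like Ptgs2, Hnrnpd, and marker lists as sums, of which 1 is not reported here. Of the listed symbols, 2 pathway genes and 1 LPS response gene are not analysed here.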

Additional observations from a re-analysis of the deposited data

How the results depend on the processing

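The count of synthesis genes past the limits was 2 in the fit reported and 1 with TMM factors, with a minimum of 10 counts in every library, with the replicate block and with library totals alone, because Ptges dropped out each time. With each library left out it ranged from 0 to 2. The 7 pathway genes became 1 with the minimum of 10 counts, where 16 were tested. With a library left out their number ranged from 4 to 10. The highest number came without control replicate 1, the fit with the most transcripts past the limits over the whole table. Over all transcripts, 1071 of 32475 passed the limits, against 704 with DESeq2 and 685 with the replicate block. It was 1715 of 52013 with no filter, 265 of 16947 with the minimum of 10 counts and 365 of 11180 with 1 transcript per gene. With a library left out the number ran from 710 of 30241 (without control replicate 3) to 3224 of 30963 (without control replicate 1). The cause of these changes was not tested.

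Replicate numbers did not pair the libraries, since the deviations of same-numbered libraries correlated at -0.07, 0.17 and -0.11, and the samples share only a number. With the replicate block Ptges had a log2 fold change of -0.92 and Ephx2 an unadjusted p of 0.0729, and no other call among the genes named changed.

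Signs turned only for genes with a log2 fold change near 0 or few counts. Alox5ap was at -0.026 with 1 transcript per gene, and with a library left out Alox5ap ranged from -0.18 to 0.24, Lta4h from -0.27 to 0.089, Tbxas1 from -0.39 to 0.076 and Alox5 from -0.84 to 0.29. The difference in the share of Ptgs2 ranged from -0.30 to 30.1 percentage points. Ptges3 kept its direction in all fits, between 0.91 and 1.23, and its adjusted p ran from 0.182 to 1.000. The median over all genes stayed between -0.03 and 0.05 in all fits. Depth limits Pla2g4a, Ptgs1, Ptgs2, Alox5 and Ltc4s, at 0 to 18 counts per library.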
